A study of Mus musculus with 18 samples.

Results

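Among 18 RNA sequencing libraries of mouse cortical neuronal cultures, the 6 numbered 2 or 5 held fewer transcripts of cholesterol synthesis enzymes than the 6 numbered 1 or 4. These 12 libraries are described here across genes. They were chosen by their replicate numbers after the levels of Hmgcs1, Sqle and related transcripts, and of synapse transcripts, had been seen to differ between the numbers. The difference between the numbers is therefore given as a description, with no test, and no gene is offered as support for the choice. The 6 libraries numbered 3 or 6 took no part in the choice.

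The cultures, labelled as cortex and as neuronal, received a lentivirus on day 7 in vitro, and RNA was taken 10 days later. The mSc group carried mScarlet, a red fluorescent control protein, the Psmb5 group the catalytic proteasome subunit Psmb5, and the Psmb8 group Psmb8, which replaces Psmb5 in the immunoproteasome. Each group held 6 libraries, numbered 1 to 6, so each number stands for 3 libraries, 1 per group, which are called a culture set below. All cultures carried a lentiviral transgene, and no untransduced culture was among the libraries. The sources used here do not give the promoter of the transgenes, the mouse strain or the age and number of the animals. The protocol field of every sample mentions an Ifng construct, which differs from the treatment tags used here. The labels do not say whether a number marks an animal, a dissection or a day, and the 3 libraries of a set resembled each other, so they are not independent. The p-values below therefore measure only how these libraries spread, which may be technical.

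Neurons and glia make cholesterol within the brain, because plasma lipoproteins barely cross the blood-brain barrier. Acetyl-CoA is built into mevalonate, then into isoprenoids and squalene, and squalene is closed and trimmed to cholesterol. The transcription factor SREBP-2, encoded by Srebf2, is held in the endoplasmic reticulum by Insig proteins when sterols are plentiful and drives the enzymes of the pathway and of sterol uptake when sterols are scarce. It binds sterol regulatory elements, often beside boxes bound by NF-Y, a factor that acts on many promoters.

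The promoters of several enzymes are shown first, because their transcripts differed together between the culture sets. RefSeq promoter windows of GRCm38.p6 were found for 16 of the 21 enzymes of the list, and the 250 bases before each start were searched on both strands. The NF-Y box, searched as CCAAT, lay in 15 of the 16 (93.75%), against 40.2% of 11444 tested genes with a window. It lay in 11 of the 12 matched enzymes that were lower in sets 2 and 5 by the definition given below, and in 4 of the 4 that were not, so the box did not separate them. The sterol regulatory core TCACNCCAC lay in 1 of the 16, Hmgcs1, and in 1.25% of all matched genes. A match describes letters in a window and is no measurement of binding. In the following lines, capitals mark these motifs on either strand and each window of 100 bases is written 5′ to 3′ in the direction of the gene. Each window was picked as the 100 of the 250 bases with the most matches, the nearest to the start on ties. It lay 137 to 38 bases before the start for Hmgcs1, 201 to 102 for Ggps1 and 100 to 1 for the others. Matches outside it are not shown: Hmgcs1, Msmo1 and Ggps1 each had 3 NF-Y boxes in the 250 bases. Hmgcs1 is read from chr13:119690214-119690313 on the plus strand, with the sterol core 137 bases before the start. Msmo1 is read from chr8:64733579-64733678 on the minus strand, Idi1 from chr13:8885506-8885605 on the plus strand and Mvd from chr8:122443423-122443522 on the minus strand. For contrast, Lss, from chr10:76531505-76531604 on the plus strand, and Ggps1, from chr13:14063590-14063689 on the minus strand, are enzymes whose libraries overlapped between the sets.
Hmgcs1: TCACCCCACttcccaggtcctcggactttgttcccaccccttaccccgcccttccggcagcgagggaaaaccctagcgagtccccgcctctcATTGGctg
Msmo1: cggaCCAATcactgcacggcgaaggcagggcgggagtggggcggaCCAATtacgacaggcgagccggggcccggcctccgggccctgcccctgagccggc
Idi1: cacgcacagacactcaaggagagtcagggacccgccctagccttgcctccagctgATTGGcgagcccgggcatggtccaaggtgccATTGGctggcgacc
Mvd: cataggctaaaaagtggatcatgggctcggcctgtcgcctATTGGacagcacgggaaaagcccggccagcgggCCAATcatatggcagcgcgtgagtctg
Lss: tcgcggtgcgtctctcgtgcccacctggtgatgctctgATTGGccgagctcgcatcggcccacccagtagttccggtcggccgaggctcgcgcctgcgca
Ggps1: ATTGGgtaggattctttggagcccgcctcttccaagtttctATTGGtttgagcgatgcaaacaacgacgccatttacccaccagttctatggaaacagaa

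Library totals ranged from 15337511 to 21074229 counts and overlapped between the sets. Sets 2 and 5 had more genes with at least 1 count (21760 to 22384) than sets 1 and 4 (21269 to 21677). Mitochondrial transcripts made up 3.47% to 4.12% of counts in sets 2 and 5 and 2.64% to 3.67% in sets 1 and 4, with overlap. Set 4 stood at 2.64% to 3.07% and set 1 at 3.42% to 3.67%. For sets 2 and 5 in turn, the median log2 difference of 13 mitochondrially encoded transcripts was 0.41 and 0.38 against set 4. Against set 1 it was -0.08 and -0.12. The part of these differences in the results below was not tested. Psmb5 stood at 41.0 to 45.1 counts per 1e6 counts (CPM) in the mSc libraries and at 561, 238, 491, 462, 437 and 520 CPM in Psmb5 libraries 1 to 6. Psmb8 stood at 0.840 to 19.4 CPM in the mSc libraries and at 1028, 546, 1038, 796, 859 and 1056 CPM in Psmb8 libraries 1 to 6. The targeted transcripts thus matched the group labels, and library 2 was the lowest of each overexpression group. In a principal component analysis of all tested genes, the first component (35.2% of the variance) separated sets 3 and 6 from the rest. The second (16.8%) placed the libraries of sets 2 and 5 at -24.3 to -15.1 and those of sets 1 and 4 at 12.8 to 23.3.

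A gene is called lower or higher in sets 2 and 5 where its 6 libraries did not overlap with the 6 of sets 1 and 4 and the log2 difference, taken within each group and averaged, was at least 0.5. Of 15671 tested genes, 342 (2.18%) were lower and 247 (1.58%) higher. Without the minimum of 0.5, 1083 genes (6.91%) were lower and 783 (5%) higher without overlap. Scaling by library totals without TMM, the trimmed-mean scaling used here, turned this split to 227 lower and 422 higher, with a shift of the median gene from -0.01 to 0.08 on the log2 scale. Fewer libraries have to be separate where a set is left out, and the counts then grew by amounts that depended on the set. They were 635 and 783 without set 1, 488 and 392 without set 2, 1038 and 422 without set 4, and 579 and 454 without set 5. Over 3 and 3 libraries, more genes were lower than higher against set 1 (1284 and 668 in set 2, 1158 and 557 in set 5). Against set 4, more were higher than lower (850 lower and 1013 higher in set 2, 839 and 1088 in set 5). Of the 21 cholesterol synthesis enzymes, 17 were lower and 0 higher, with a median log2 difference of -1.26 against -0.01 over all tested genes. As the sets were chosen on sterol and synapse transcripts of these libraries, nothing is read from that count or from the counts of the other lists in this comparison, which are set beside the shares of all tested genes as a description. In bulk RNA, fewer cells of a type and less RNA per cell cannot be told apart.

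**Figure D1:**
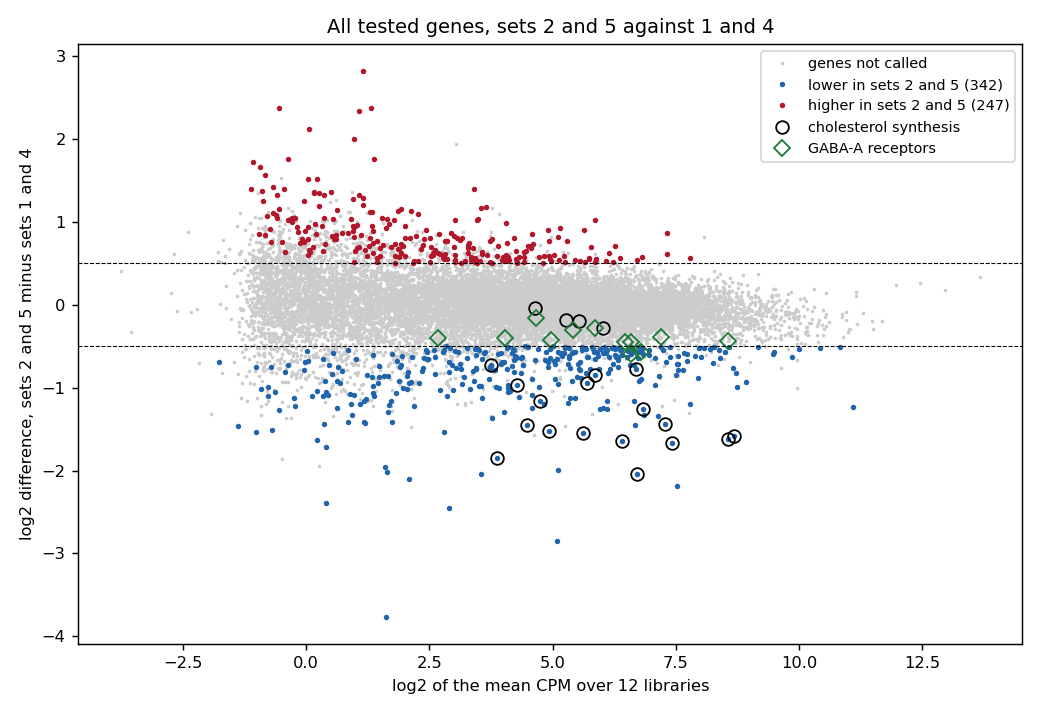
Each point is a tested gene, with the log2 of its mean CPM over the 12 libraries on the x axis and the log2 difference of sets 2 and 5 minus sets 1 and 4 on the y axis. Blue points are the 342 lower genes, red points the 247 higher genes, circles the 21 cholesterol synthesis enzymes and diamonds the 12 GABA-A receptor subunits, and dashed lines mark 0.5 in each direction. The largest positive differences lie at low levels, while most enzymes lie low on the plot at moderate to high levels.

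The early, mevalonate-forming steps were among those with large differences. Hmgcs1 (ENSMUSG00000093930, chr13:119690379-119708260, plus strand, GRCm38), which condenses acetoacetyl-CoA with acetyl-CoA to HMG-CoA, stood at 179 to 238 CPM in sets 2 and 5 (median 202) and at 443 to 828.7 CPM in sets 1 and 4 (median 609). The 6 libraries of sets 2 and 5 all lay below the 6 of sets 1 and 4, and the level was 2.98-fold lower, a log2 difference of -1.58 (SD 0.06 over the 3 groups). In the 6 libraries of sets 3 and 6 it ranged from 509 to 612 CPM, within the range of sets 1 and 4. Acat2, which supplies acetoacetyl-CoA, differed by -0.94 (SD 0.12), and its libraries did not overlap (32.6 to 36.8 CPM against 54.9 to 96.7 CPM).

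The steps from mevalonate to squalene were uneven. Mvd, which decarboxylates mevalonate diphosphate, and Idi1, the isomerase that follows it, differed by -1.53 (SD 0.20) and -1.85 (SD 0.19). Idi1 was at 4.64 to 7.13 CPM in sets 2 and 5 and at 15.7 to 39.4 CPM in sets 1 and 4. Mvk, the kinase that acts on mevalonate, differed by -0.96 (SD 0.02), and Pmvk, the kinase after it, by -0.18 (SD 0.14) with overlapping libraries. Fdps, which makes farnesyl diphosphate, and Fdft1, which joins farnesyl units into squalene, differed by -1.54 (SD 0.16) and -1.64 (SD 0.07). Ggps1 uses the same farnesyl substrate for geranylgeranyl diphosphate, a branch that leaves the sterol path. It was at 22.9 to 26.4 CPM in sets 2 and 5 and at 23.0 to 29.9 CPM in sets 1 and 4, a difference of -0.04 (SD 0.09).

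In the sterol-forming steps, Sqle (ENSMUSG00000022351, chr15:59315077-59331192, plus strand, GRCm38), the squalene epoxidase, stood at 70.4 to 97.3 CPM in sets 2 and 5 (median 78.9) and at 214 to 337 CPM in sets 1 and 4 (median 255). Again no library overlapped, and the level was 3.17-fold lower, a log2 difference of -1.66 (SD 0.10). Sets 3 and 6 lay at 203 to 238 CPM. The largest difference in the list was that of Msmo1, the methylsterol oxidase, at 33.7 to 50.4 CPM against 133 to 223 CPM, a log2 difference of -2.04 (SD 0.18). Nsdhl and Hsd17b7, which act in the same demethylation as Msmo1, differed by -1.45 and -1.16, and Cyp51, a sterol demethylase of a separate step, by -1.26. The late enzymes Sc5d, Dhcr7 and Ebp differed by -0.85, -0.77 and -0.73, each without overlap. Lss, the cyclase that closes lanosterol, and Tm7sf2, a sterol reductase with a functional partner in the lamin B receptor, overlapped between the sets, with differences of -0.28 and -0.19. The 4 enzymes that were not called were thus Pmvk, Ggps1, Lss and Tm7sf2, all with differences below 0.

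**Figure D2:**
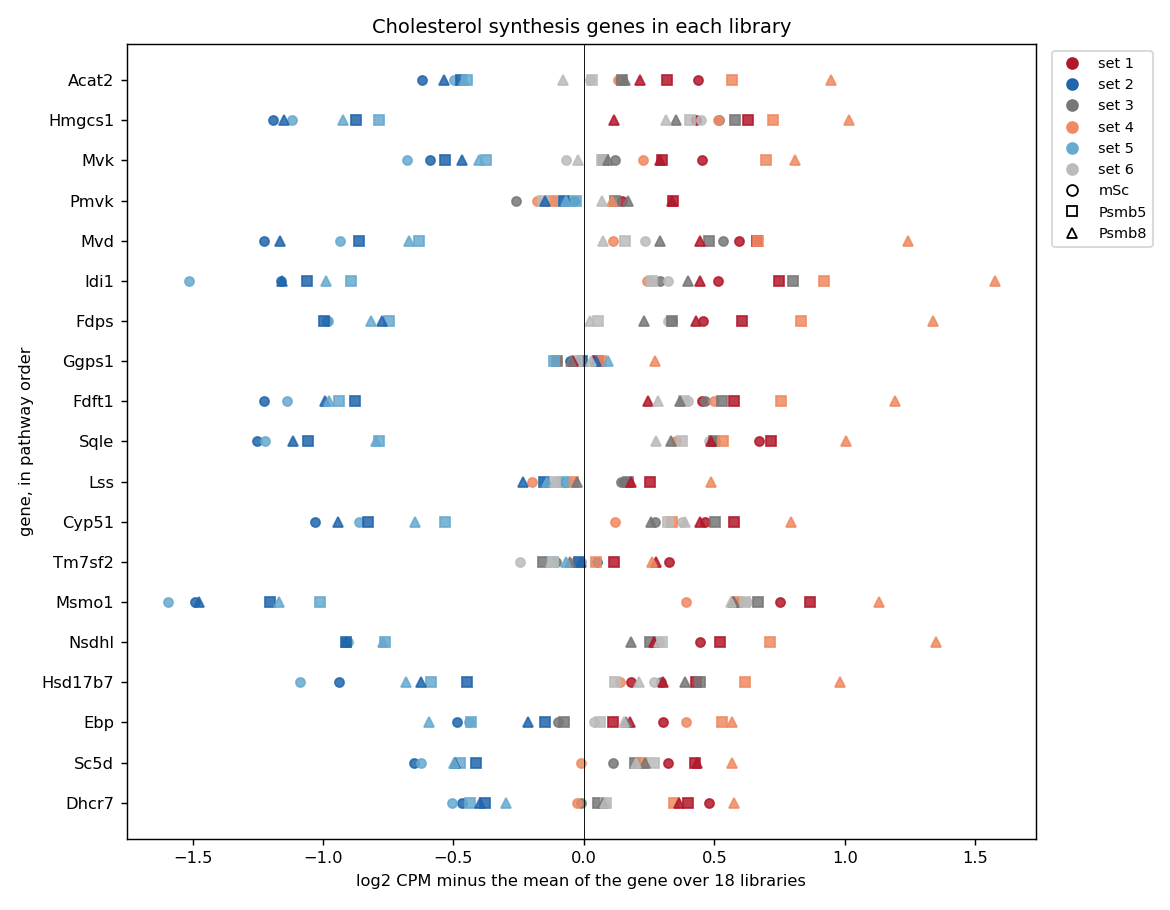
Rows are 19 of the 21 enzymes, in pathway order, and the x axis is log2 CPM minus the mean of the gene over 18 libraries. Colours are the culture sets and shapes the groups, 1 point per library. Points of sets 2 and 5 (blue) lie to the left for most rows, and those of sets 3 and 6 (grey) lie with or near sets 1 and 4, while Pmvk, Ggps1, Lss and Tm7sf2 overlap.

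Sets 1, 2, 4 and 5 were then compared in pairs by the same definition, now over 3 and 3 libraries, and each pair of sets with sets 3 and 6 together, comparisons chosen after these data were seen. Of the 21 enzymes, 16 were lower in set 2 than in set 1, 17 in set 2 than in set 4, 17 in set 5 than in set 1 and 17 in set 5 than in set 4. The shares over all tested genes were 8.19%, 5.42%, 7.39% and 5.35%. Of the enzymes 0 were higher in any of these 4 comparisons, against 4.26%, 6.46%, 3.55% and 6.94% of all genes. Between sets 2 and 5 themselves 0 enzymes were lower and 0 higher (all genes 1.25% and 1.32%), with a median difference of -0.04. Between sets 1 and 4, 0 were lower and 0 higher (all genes 3.43% and 7.01%), with a median of -0.11. Sets 3 and 6 lay close to sets 1 and 4: against sets 3 and 6 together, 15 of 21 enzymes were lower and 0 higher in sets 2 and 5 (all genes 3.97% and 4.81%, median -1.10), while 0 of 21 were lower or higher in sets 1 and 4 (all genes 1.55% and 3.27%, median 0.22). The comparisons share libraries and are not independent of each other. By mean log2 CPM over sets 1 to 6, Hmgcs1 stood at 9.07, 7.61, 9.16, 9.43, 7.74 and 9.07. As sets 2 and 5 were chosen on such values, these comparisons describe the choice and add no support to it.

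**Figure D3:**
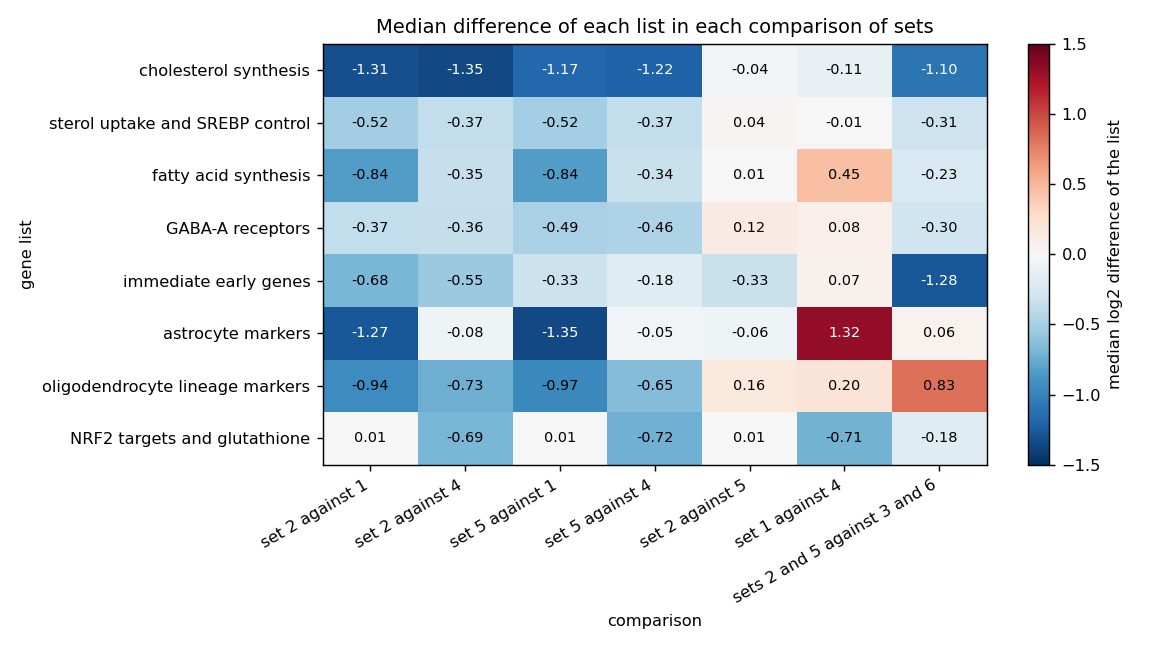
Each cell gives the median log2 difference of a gene list (rows) in a comparison of sets (columns), with blue for lower and red for higher in the set named first. The cholesterol synthesis row is between -1.35 and -1.17 in the 4 comparisons of sets 2 or 5 with sets 1 or 4 and near 0 within each pair, and the astrocyte row is low where set 1 is the comparator.

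Sterol uptake and SREBP control transcripts were mixed. Of 15 tested members, 5 were lower and 0 higher (all genes 2.18% and 1.58%), with a median difference of -0.44. Stard4, a sterol carrier of the cytosol, stood at 11.3 to 18.3 CPM against 43.9 to 81.1 CPM, a log2 difference of -1.998. Insig1, the SREBP-retaining protein and itself a known SREBP target, and Srebf2 differed by -1.32 and -0.998. Srebf2 stood at 253 to 321 CPM against 550 to 597 CPM. Tmem97, a sterol-regulated membrane protein named after its value was seen, differed by -0.69.

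Transcripts of sterol export and storage differed less. Among 12 tested members of a list of liver X receptor targets and efflux genes, 1 was lower (all genes 2.18%), Lpcat3, a phospholipid acyltransferase (28.0 to 34.1 CPM against 43.4 to 54.0 CPM, log2 difference -0.64), and the median was -0.13. Abca1, the cholesterol exporter, overlapped between the sets at 193 to 248 CPM against 227 to 406 CPM. Apoe, the main apolipoprotein of the brain, ranged from 1490 to 1687 CPM in sets 2 and 5 and from 1094 to 3606 CPM in sets 1 and 4.

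Fatty acid synthesis and desaturation genes were lower in 9 of 18 tested members and higher in 0 (all genes 2.18% and 1.58%), with a median of -0.66. Scd1, a stearoyl-CoA desaturase, stood at 49.7 to 71.6 CPM against 128 to 506 CPM, a log2 difference of -2.19. Scd2 and Fads2, also desaturases, differed by -1.23 and -1.20, and Fasn, the fatty acid synthase, by -0.83. Set 1 stood apart here: 9 of the 18 were higher in set 1 than in set 4 (all genes 7.01%), and the median difference from set 1 was -0.84 in both set 2 and set 5, against -0.35 and -0.34 from set 4.

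**Figure D4:**
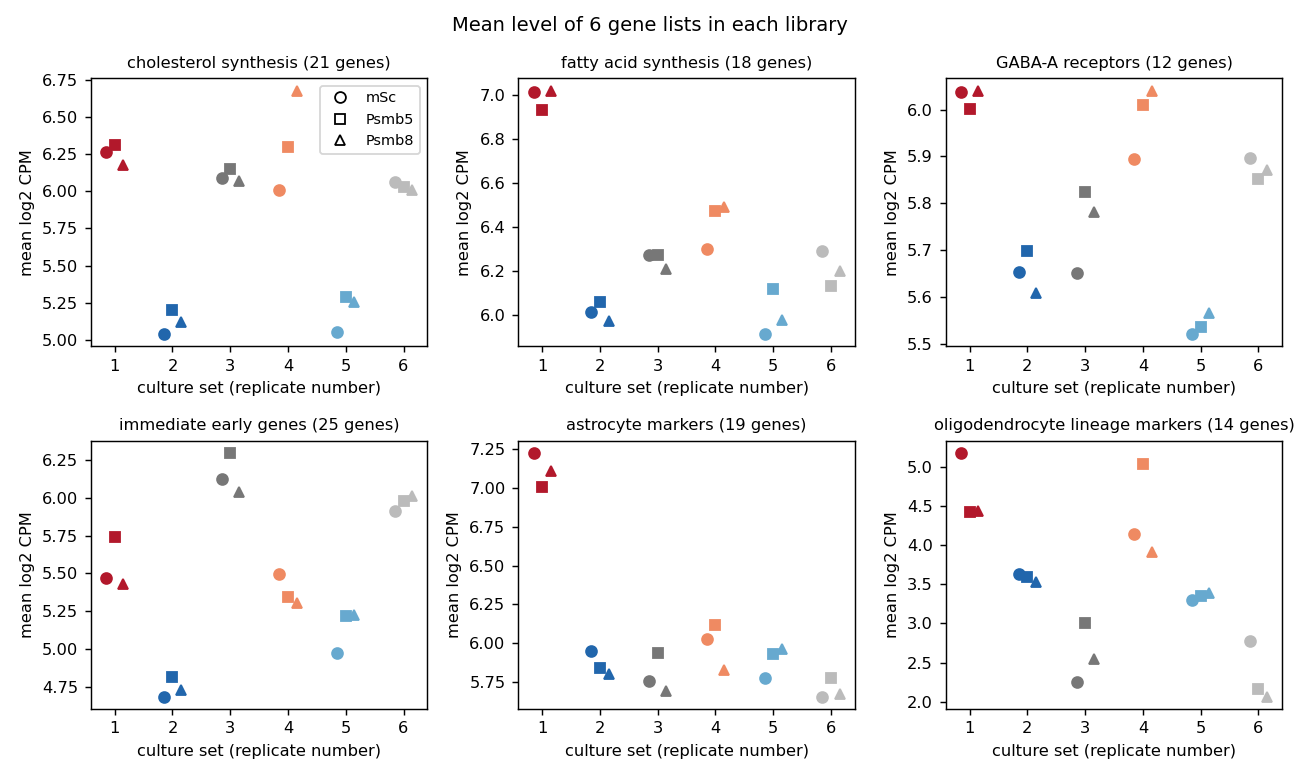
Each panel plots the mean log2 CPM of a gene list in each library (y axis) by culture set (x axis), with circles for mSc, squares for Psmb5 and triangles for Psmb8. The cholesterol synthesis means of sets 2 and 5 lie between 5.04 and 5.29 and those of the other 4 sets between 6.01 and 6.68, the immediate early genes are highest in sets 3 and 6, and the astrocyte markers in set 1.

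Synapse transcripts differed by small amounts. Of 34 presynaptic release genes 1 was lower, of 27 glutamate receptor genes 3, of 31 postsynaptic scaffold and signalling genes 2, of 12 GABA-A receptor subunits 2 and of 33 voltage-gated channel genes 2, and 0 members of these lists were higher (all genes 2.18% and 1.58%). The medians were -0.11, -0.17, -0.16, -0.42 and -0.10. The glutamate receptor median was -0.39 in set 2 and -0.30 in set 5 against set 1, but -0.08 and -0.07 against set 4, where 2 members were higher in set 2 and 2 in set 5 (all genes 6.46% and 6.94%). Among GABA-A receptor subunits, which form the chloride channels of fast inhibition, the differences of the 12 ranged from -0.59 to -0.16. Gabra3 stood at 71.0 to 86.6 CPM against 109 to 131 CPM, and its 6 and 6 libraries were separate, with a log2 difference of -0.59. Gabra5 and Gabrb2 differed by -0.45 and -0.45 and missed the minimum of 0.5.

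Among glutamate receptors, Gria3, an AMPA receptor subunit, differed by -0.69 (114 to 131 CPM against 175 to 209 CPM), and Grm3, a metabotropic receptor also made by astrocytes, by -1.19. Grm3 ranged widely in sets 1 and 4, from 29.6 to 86.2 CPM. The third, Grin2a, an NMDA receptor subunit named after its value was seen, differed by -0.54. Gria2, at the highest level of the list, overlapped between the sets with a difference of -0.17. Camk2a, the synaptic kinase, stood at 754 to 880 CPM against 1102 to 1362 CPM, and Homer1, a scaffold, at 58.1 to 90.9 CPM against 99.8 to 132 CPM, with differences of -0.54 and -0.63. Sv2b, a synaptic vesicle protein, was the presynaptic gene that was lower, with a difference of -0.57. Kcna1 and Cacna2d1, a potassium channel and a calcium channel subunit, were also called, with differences of -0.63 and -0.55.

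Immediate early genes, which neurons switch on with activity, were lower in 4 of 25 members (all genes 2.18%), with a median of -0.41. Nptx2, a secreted synaptic pentraxin, stood at 37.8 to 77.1 CPM against 117 to 204 CPM, a log2 difference of -1.45 (SD 0.45), and Npas4, an activity-dependent transcription factor, at 24.1 to 32.4 CPM against 33.5 to 88.7 CPM, a difference of -0.92. Bdnf, a neurotrophin named after its value was seen, differed by -0.89. The difference was larger in set 2 than in set 5. In set 2, 16 of 25 were lower against set 1 and 13 against set 4 (all genes 8.19% and 5.42%), with medians of -0.68 and -0.55. In set 5, 7 and 3 were lower (all genes 7.39% and 5.35%), with medians of -0.33 and -0.18. In set 2, 1 was higher against set 1 (all genes 4.26%). Between sets 2 and 5, 6 of 25 were lower in set 2 (all genes 1.25%). Against sets 3 and 6, 22 of 25 were lower in sets 2 and 5 (all genes 3.97%) and 12 of 25 in sets 1 and 4 (all genes 1.55%).

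Of 14 excitatory and 17 inhibitory neuron markers, 0 were lower and 0 higher, with medians of -0.03 and -0.12 (all genes 2.18% and 1.58%), and neurofilament and mature neuron genes had 0 of 20 called with a median of -0.18. Inhibitory markers differed within the pairs of sets: 8 of 17 were higher in set 2 than in set 5 (all genes 1.32%, median 0.40), and 8 were higher and 1 lower in set 1 than in set 4 (all genes 7.01% and 3.43%, median 0.46). Against set 1, 8 of 17 were lower in set 5 (all genes 7.39%, median -0.47). The excitatory list summed to 1194 to 1256 CPM in sets 2 and 5 and to 1259 to 1561 CPM in sets 1 and 4, a narrow gap. Slc17a7, given next, held a large part of these sums. The mean log2 CPM of the list overlapped, at 5.20 to 5.25 in sets 2 and 5 and 5.15 to 5.37 in sets 1 and 4. For the labelled neuronal identity, Slc17a7, the vesicular glutamate transporter of cortical neurons, was present at 641 to 710 CPM and 745 to 1028 CPM.

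The oligodendrocyte lineage list had 8 of 14 tested members lower and 0 higher (all genes 2.18% and 1.58%), with a median of -0.77, and its 18 members summed to 589 to 685 CPM in sets 2 and 5 and to 737 to 1190 CPM in sets 1 and 4. Pdgfra, the receptor that marks oligodendrocyte precursors, stood at 120 to 148 CPM against 186 to 314 CPM. Gpr17, a receptor of differentiating precursors, differed by -2.45, and Bcas1 was below 1 CPM in all 6 libraries of sets 2 and 5 (0 to 0.437 CPM) against 1.04 to 13.8 CPM. In sets 3 and 6, whose sterol enzyme levels lay near those of sets 1 and 4, the list summed to 253 to 461 CPM, lower than in sets 2 and 5. Its part in the sterol difference was not tested.

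Astrocyte markers rested on set 1. Of 19 tested members 2 were lower (all genes 2.18%), Gja1, the gap junction protein, and S100b, with a median of -0.63. The 20 markers summed to 7345 to 8658 CPM in the 3 libraries of set 1, to 2854 to 3354 CPM in set 4, to 2963 to 3628 CPM in sets 2 and 5 and to 2792 to 3255 CPM in sets 3 and 6. Against set 4, the list's median difference was -0.08 in set 2 and -0.05 in set 5, and against set 1 it was -1.27 and -1.35. The part of astrocyte content in the sterol difference was not tested. Progenitor markers had 2 of 14 lower (all genes 2.18%), Fabp7 and Ptprz1, both also made by glia, with differences of -1.17 and -0.93. Of 16 microglia markers 13 were below 1 CPM, and their sum was 37.6 to 44.1 CPM against 34.6 to 45.9 CPM.

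The 12 largest positive differences among called genes at 5 CPM or more ran from 0.87 to 1.40 on the log2 scale. Ahnak, a large scaffold protein, stood at 12.7 to 19.3 CPM in sets 2 and 5 and at 3.88 to 8.50 CPM in sets 1 and 4, and Col2a1, a fibrillar collagen, at 13.6 to 19.5 CPM against 4.04 to 11.1 CPM. Hspa1b, an inducible heat shock protein, was at 10.2 to 23.2 CPM against 4.42 to 9.38 CPM, but Hspa1a, its near-identical copy, overlapped between the sets, and reads of the pair may be split by the counting. Gas1, a membrane protein of hedgehog signalling, was at 69.1 to 83.4 CPM against 31.5 to 58.3 CPM. Lin28b, Nkd2, N4bp3, Igsf9, Ass1, Gmip, B3gnt7 and Scarf2 completed the 12. Lin28b and Gas1 were at similar levels in sets 3 and 6 as in sets 2 and 5 (12.5 to 15.8 CPM and 61.5 to 75.7 CPM), while Igsf9 (16.2 to 20.5 CPM) and N4bp3 (3.90 to 5.68 CPM) were near sets 1 and 4.

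Of 27 interferon-stimulated genes 2 were higher and 0 lower (all genes 1.58% and 2.18%). The higher genes were Rsad2 (2.12 to 6.89 CPM against 0.323 to 1.48 CPM) and Ifit1 (3.05 to 4.69 CPM against 0.231 to 1.18 CPM). Bbc3, a pro-apoptotic target of p53, was higher by 0.71, the single called gene of 18 p53 targets (all genes 1.58% higher). Ndrg1, a stress-responsive gene, was higher by 0.70, the single called gene of 25 hypoxia and glycolysis genes (all genes 1.58% higher). NRF2 targets had 0 of 20 called (all genes 2.18% lower and 1.58% higher). Their median was -0.34, and this rested on set 4. Medians were -0.69 and -0.72 against set 4 and 0.01 and 0.01 against set 1, for sets 2 and 5 in turn. Of 30 proteasome subunit genes 0 were called, with a median of -0.09, and of 38 cytosolic ribosomal protein genes 0, with a median of 0.11. The shares over all genes are the same as for the NRF2 targets. At such shares, lists of this size hold few or no called genes, so nothing is read from these counts.

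Lower and higher genes differed in transcript length and base composition. The 342 lower genes had a median length of 3811 bases and a median GC content of 47.3%, the 247 higher genes 2795 bases and 53.2%, and all tested genes 3281 bases and 49.7%. Of 5 bins of genes by length, 2.89% of the longest bin were lower and 0.868% higher, against 0.771% and 1.90% of the shortest. The cholesterol synthesis enzymes were near the middle, at 3083 bases and 48.7%. With a length and GC trend removed from each library, 326 genes were lower and 242 higher. Of the 589 genes called without this step, 500 were called again in the same direction.

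The libraries that the choice did not use were tested next. In set 3 against set 6, 102 genes were lower (0.651%) and 25 higher (0.16%) by edgeR's quasi-likelihood test at an adjusted p under 0.05 (Benjamini-Hochberg). The higher count was 52, 46 and 42 without the mSc, Psmb5 or Psmb8 libraries, and 10 by DESeq2. Of the 21 enzymes 1 passed, Mvd, higher in set 3 by 0.28 (SE 0.07, adjusted p = 0.0447), and the median was 0.07. Hmgcs1 differed by 0.09 (SE 0.04, adjusted p = 0.556) and Sqle by 0.07 (SE 0.04, adjusted p = 0.747). These small differences set no low and high pair between sets 3 and 6. Of 27 interferon-stimulated genes, 24 were lower in set 3. Npas4 was higher in set 3 by 0.47 (SE 0.05, adjusted p = 5.84e-06).

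The difference between groups was not used in choosing the sets, so it was asked whether the effect of a proteasome subunit differed between sets 2 and 5 and sets 1 and 4. By the test of the interaction, 0 of 15671 genes passed for Psmb5 (0%) and 0 for Psmb8 (0%) at an adjusted p under 0.05. At an unadjusted p under 0.05 there were 115 and 171 genes without the replicate number as a block. With the block there were 533 and 580, and again 0 passed. An unadjusted p under 0.05 is expected for 783.55 of 15671 genes by chance, above each of these counts. DESeq2 also called 0 for each, and without set 4, 2 genes passed for Psmb8. For Hmgcs1, the Psmb5 effect was 0.33 in sets 2 and 5 and 0.20 in sets 1 and 4, an interaction of 0.12 (SE 0.31, adjusted p = 0.9999), and the Psmb8 effect was 0.12 and 0.09, an interaction of -0.04 (SE 0.31, adjusted p = 0.99998). For Sqle the interactions were 0.21 (SE 0.26) and 0.04 (SE 0.26). These Hmgcs1 and Sqle values are from the fit without the block, where the spread between sets of a class enters the SE. A high adjusted p there does not show that the effects were equal. The effects are differences of mean log2 CPM and the interactions are model estimates, so they need not match. Hmox1, the heme-degrading enzyme, was among the genes with the smallest blocked p, with interactions of -0.78 (SE 0.14, adjusted p = 0.740) for Psmb5 and -0.86 (SE 0.14, adjusted p = 0.260) for Psmb8. These did not pass the threshold.

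The mean log2 CPM of the 21 enzymes in Psmb8 minus mSc libraries was -0.09, 0.08, -0.02, 0.67, 0.21 and -0.05 in sets 1 to 6, and in Psmb5 minus mSc libraries 0.05, 0.16, 0.06, 0.29, 0.24 and -0.03. Set 4 held the largest value in both. By comparison, the difference of Hmgcs1 between sets 2 and 5 and sets 1 and 4 was -1.63 in mSc, -1.505 in Psmb5 and -1.60 in Psmb8 libraries.

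**Figure D5:**
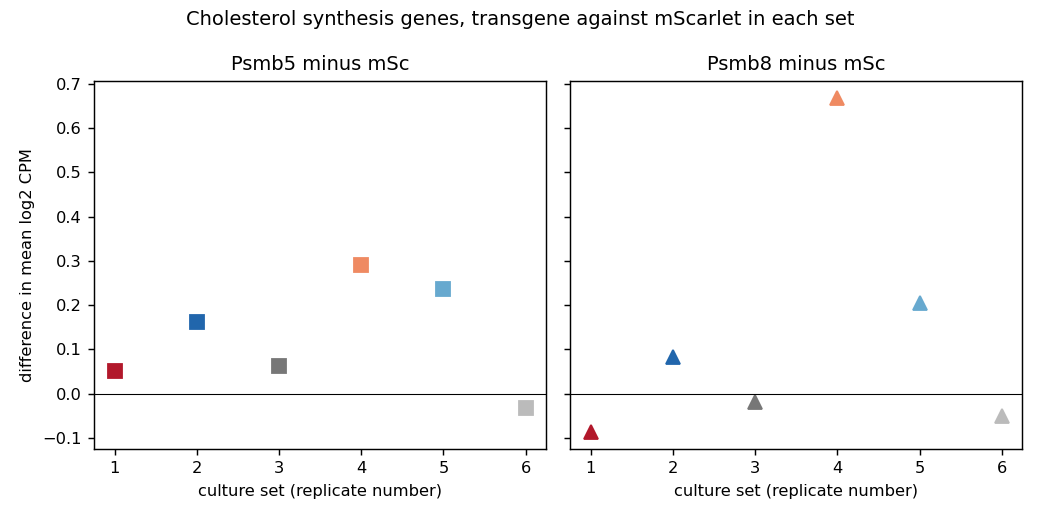
Points give the difference in mean log2 CPM of the 21 cholesterol synthesis enzymes between a transgene group and mSc within each culture set, with the Psmb5 group on the left and the Psmb8 group on the right. The value of Psmb8 in set 4, 0.67, stands above the other 5 of its panel, which lie between -0.09 and 0.21.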

How the data were processed

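Poly(A)-enriched RNA of 18 libraries was sequenced, per the labels' protocols. The deposited file holds the authors' whole-number counts, not normalized, for 43629 Ensembl gene IDs in 18 libraries. STAR 2.4 and DESeq2, and the builds GRCm39 and mm10, are named in the submitters' processing notes with no role. The sources used here do not give the counter, its strand setting or the annotation, so reads of near-identical or overlapping genes may be split.

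The members, gene lists and tests were chosen with earlier results of these data known. In R 4.3.3, edgeR 4.0.16 kept 15671 genes with filterByExpr by group and scaled all 18 libraries by TMM. CPM was computed over tested genes with TMM factors. Differences between sets 2 and 5 and sets 1 and 4 are means of log2 CPM (prior count 2) taken within each group and averaged, with the SD over the 3 groups. Set 3 against 6 was tested with group as a covariate, and interactions in the 12 libraries with group and set class as terms, by edgeR's quasi-likelihood test with Benjamini-Hochberg adjustment over all tested genes. Named genes are Hmgcs1, Sqle, Psmb5, Psmb8, every cholesterol synthesis enzyme, the 12 largest differences in each direction at 5 CPM or more, up to 4 members per list with the largest difference, the members at the highest level, and the interaction genes with the smallest p. Exceptions are marked in the text, and some genes are not reported here by name. Comparisons of single sets and with sets 3 and 6 were added after the data were seen.

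Lengths, GC content and coordinates are from GENCODE's GRCm38 annotation, matched for 99.3% of tested genes. The 18 same-numbered pairs between groups correlated at r 0.45 to 0.73 (mean 0.60) in deviations from group means, against a mean of -0.12 over 90 other pairs (-0.54 to 0.65), so the numbers were taken to pair the libraries. Over 45 pairs within groups the chi-square of counts per degree of freedom was 2.91 to 37.8, so no library looked deposited more than once. At 15337511 to 21074229 counts per library, counting error limits low genes. On simulated data with known changes of 1 and 2 on the log2 scale, 88% and 100% were recovered between the 4 sets, 83% and 98% between sets 3 and 6, and 62% and 85% for the interaction without the block. The simulated libraries shared a common mean per gene and held no variation between culture sets, unlike the real ones. These shares may therefore overstate recovery in the real data, above all for the interaction without the block. Alternatives were DESeq2 1.42.0, other scalings, filters, prior counts and fold minimums, single groups, sets left out, the replicate block, and removal of a length and GC trend.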

Additional observations from a re-analysis of the deposited data

Results flagged for a closer look

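In sets 1 and 4, the mean log2 CPM of the 12 GABA-A receptor subunits was 5.89 in mSc library 4, the lowest of the 6, with the next at 6.001, a gap of 0.734 of the range against a limit of 0.625. It was the single such case among 111 groups of 6 libraries looked at (means of each gene list, and Hmgcs1 and Sqle). Chance would flag about 1 in 20 groups of independent values. The libraries of a culture set are not independent, so that rate may not hold here.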

How the results depend on the processing

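Counts of lower and higher genes in sets 2 and 5 against 1 and 4 depended on the rule. They were 227 and 422 by library totals without TMM, 1083 and 783 with no fold minimum, 89 and 61 at a fold minimum of 1, 998 and 794 in mSc libraries alone, 896 and 772 in Psmb5 libraries, and 781 and 816 in Psmb8 libraries. A minimum of 5 CPM left 119 higher genes. With a set left out, fewer libraries must be separate, and the counts depended on which set it was. Lower genes ranged from 488 (without set 2) to 1038 (without set 4) and higher genes from 392 (without set 2) to 783 (without set 1). There were 635 lower genes without set 1, 422 higher without set 4, and 579 and 454 without set 5. Of 188 named genes, 64 were called. Over 16 alternatives their 1018 values held their sign, and 187 moved by over 1 SD. The libraries of a called gene are separate, so single groups or a set left out could not turn its sign. Fold minimums and the minimum of 5 CPM leave the difference as it is. The kept sign therefore adds no support to the calls. For set 3 against 6, DESeq2 gave 10 higher genes, no low-count filter 166 lower and 74 higher, and the omission of mSc, Psmb5 or Psmb8 libraries 88, 131 and 110 lower and 52, 46 and 42 higher.

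With the replicate block, which follows the pairing by number, 0 genes passed for the Psmb5 interaction and 0 for the Psmb8 interaction, as without it. With no low-count filter 4 genes were higher for Psmb5, and 3 lower and 8 higher for Psmb8. Without set 4, 2 genes were higher for Psmb8, and without each other set 0. The causes were not tested. Genes near 1 CPM have 15 to 21 counts, so depth limits them most.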
